A study of Schmidtea mediterranea with 171 samples.

Results

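The 96 single X1 cells of the planarian head were divided by 3 genes into a zeta side and a sigma side. The zeta side held the cells with zfp-1 (SmedASXL_001731) at 5 CPM or more (CPM, the reads of a transcript per 1000000 reads that a cell had on all transcripts). The sigma side held the cells with zfp-1 under 5 CPM and soxP-1 (SmedASXL_013552) or soxP-2 (SmedASXL_013986) at 5 CPM or more. By this rule 17 of the 96 X1 cells were zeta-side cells and 40 were sigma-side cells, and the other 39 had none of the 3 genes at 5 CPM. The 57 cells of both sides were 57 of the 168 single cells sequenced in the series.

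All cells came from wild-type asexual CIW4 planarians (Schmidtea mediterranea, a clonal strain), starved for 1 week, whose heads were cut off and dissociated. Heads of 30 animals were pooled before sorting, so no cell could be traced to an animal and the X1 gate was 1 sample. For that reason no test was made between the sides, and every value below is a description with its spread over cells or its counting interval. X1 is the gate of Hoechst-stained cells with replicated DNA, which holds most cycling planarian cells. The series also held 72 single cells of the X2 gate and tubes of 200 cells, of which 2 were of X1 cells.

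Neoblasts are the dividing adult stem cells of planarians, and they replace every tissue of the animal. Earlier work divided them into classes by the genes they express. Zeta-class neoblasts, marked by zfp-1, a zinc finger gene needed to make epidermis, lead to the skin. Sigma-class neoblasts, marked by SoxP-family transcription factor genes, were described as a broader population that responds to wounding. They were proposed to give rise to the zeta class. The study of these cells questioned how specific the sigma-class markers are and which neoblasts had produced new zeta-class cells.

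Another zeta-class gene was found in 9 of the 17 zeta-side cells, and 12 of them had all 7 stem cell markers examined. The FGF receptor gene fgfr-1 was detected in 6 of 17 zeta-side cells and in 0 of 40 sigma-side cells, and all 17 zeta-side cells had piwi-1, against 29 of 40 sigma-side cells. Sigma-side cells had nlk-1 in 21 of 40 cells, against 5 of 17 zeta-side cells, and 7 of them had piwi-1 under 5 CPM and lay in a group of X1 cells with neural genes. For the 7 stem cell genes the means of the sides were within 4-fold of each other. The share of cells was at least 25 points higher on the zeta side for 3 of the 7, where 7.2% of all transcripts passed. That count depended on the setting. It was 1 with reads thinned to equal depth or without the group with neural genes, and 0 with detection at 1 read. It was 4 without a further group of X1 cells described below.

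Reads assigned to transcripts numbered 3.90 ± 2.2 M (M, 1000000 reads) per zeta-side cell, 3.92 ± 3.44 M per sigma-side cell and 3.84 ± 2.1 M per cell on neither side (SD over cells), with medians of 4.00, 2.8 and 3.16 M. Reads were seen for 6037 ± 2645 transcripts per zeta-side cell, 5258 ± 1307 per sigma-side cell and 4603 ± 1713 per cell on neither side. After each cell was thinned to 100000 assigned reads the means were 2338, 2144 and 1807 transcripts. The order of the sides was thus the same at equal depth, with overlapping ranges of 972 to 3836, 1128 to 3317 and 492 to 2711. Libraries carried no molecular identifiers and no doublet caller was run, so intervals cover counting error only. Whether any library held a pair of cells was not tested.

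In the 17 zeta-side cells zfp-1 ranged from 5.37 to 266 CPM with a median of 44.6 CPM, and the lowest values inside the rule were 5.37, 6.87 and 8.43 CPM. Just outside it lay 1 cell at 4.04 CPM, and the next was at 0.705 CPM. Of the 40 sigma-side cells, 34 had no zfp-1 read at all. These values chose the cells and are given as a description only.

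Of the 40 sigma-side cells, 19 had soxP-1 only, 15 had soxP-2 only and 6 had both. The lowest deciding values were 5.81 CPM for soxP-1 and 7.91 CPM for soxP-2. The highest values among cells on neither side were 4.30 CPM for soxP-1 and 4.34 CPM for soxP-2. soxP-2 was in 6 of 28 X1 cells with soxP-1 (21.4%, exact 95% interval 8.30% to 41.0%) and in 15 of 68 without it (22.1%, 12.9% to 33.8%). The shares were close, with wide intervals.

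Markers of both classes were also counted together, as a description of the values that chose the cells. Of the 17 zeta-side cells, 3 also had soxP-1, at 48.8, 40.9 and 13.8 CPM, which is 17.6% (exact 95% interval 3.80% to 43.4%). soxP-2 reached 5 CPM in 0 of 17 (0% to 19.5%). Among the 79 X1 cells without zfp-1, soxP-1 was in 25 (31.6%, 21.6% to 43.1%), soxP-2 in 21 (26.6%, 17.3% to 37.7%) and either in 40 (50.6%, 39.1% to 62.1%). The last 40 are the sigma side itself, so no comparison is drawn from them. In the tubes of 200 X1 cells zfp-1 was at 18.8 and 13.8 CPM, near the 11.9 CPM averaged over the 96 single cells, and in the X2 gate zfp-1 reached 5 CPM in 3 of 72 cells (4.17%, 0.868% to 11.7%).

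**Figure D1:**
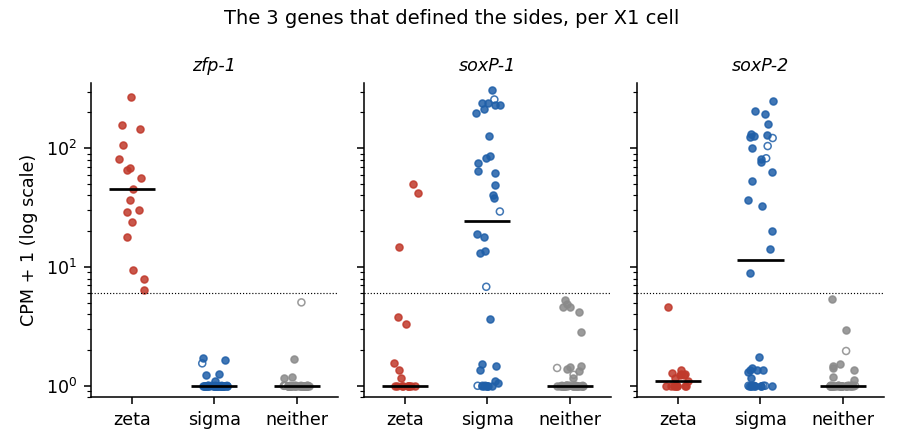
CPM plus 1 on a log axis of zfp-1, soxP-1 and soxP-2 in each of the 96 X1 cells, by side (17 zeta, 40 sigma, 39 neither). Bars are medians, the dotted line is the 5 CPM threshold and open circles are cells of the rebuilt Group 3; every zeta-side cell lies above the line for zfp-1 and the other cells lie at 4.04 CPM or less.

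X1 cells were also placed in the 10 groups that result from Ward clustering of all single cells of both gates on their 1000 most variable transcripts. The X1 cells fell into Groups 1 to 4. Groups 1 to 3 held 55, 7 and 17 of them, while the study lists 49 cells for its own Groups 1 to 3. The rebuilt groups therefore differ from the study's, and group numbers here mean the rebuilt ones. Zeta-side cells numbered 9, 3, 0 and 5 in those groups, sigma-side cells 21, 2, 7 and 10, and the cells on neither side 25, 2, 10 and 2. Group 3 therefore held 0 of 17 zeta-side cells (exact 95% interval 0% to 19.5%) and 7 of 40 sigma-side cells (17.5%, 7.34% to 32.8%). Its 10 cells on neither side included the cell at 4.04 CPM of zfp-1, just under the threshold.

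The 7 sigma-side cells of Group 3 had few of the gate's markers. Of the 7 stem cell markers used here they had 2.3 ± 0.951 per cell, and piwi-1, the defining neoblast gene, reached 5 CPM in none of them, against all 17 zeta-side cells and 29 of the other 33 sigma-side cells. They had 3.86 ± 2.6 of 11 neural-lineage genes per cell, and piwi-2, a second PIWI gene, was at 5 CPM or more in all 7. Since the neural genes are among the transcripts used for the clustering, this is a description of the group and not a finding about it. soxP-1 placed 4 of them on the sigma side and soxP-2 the other 3, and results are given below with and without them, an alternative chosen after the data were seen.

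Of the cells numbered 1 to 24, 25 to 48, 49 to 72 and 73 to 96, zeta-side cells numbered 6, 3, 1 and 7 and sigma-side cells 7, 10, 11 and 12. What the numbers stand for in the preparation is not given in the sources used here. The values without cells 1 to 24 are given beside the gene lists they move.

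Group 4 also stood apart, since its 17 X1 cells were cell 78 and cells 81 to 96. Of the 17 X2-lineage transcripts described further on, 8 reached 5 CPM in at most 3 of the 79 X1 cells outside Group 4 and in 8 to 16 of its 17 cells. GTPBP-6, for example, had a median of 399.9 CPM (1.8 to 1564 CPM) in Group 4 and reached 5 CPM in 2 of the other 79 cells, with 9.27 CPM as the highest. None of the 8 had a read in cells 1 to 74, and outside Group 4 GTPBP-6 was read only in cells 75 to 77, 79 and 80. GT-1, also of the 17, was at most 0.647 CPM in cells 1 to 24 and at least 24.5 CPM in cells 25 to 96. What lay behind these steps along the numbering was not tested. Group 4 held 5 zeta-side and 10 sigma-side cells, and whether its position in the numbering or its cells set these levels cannot be told apart. An alternative without it, also chosen after the data were seen, left 12 zeta-side and 30 sigma-side cells.

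The comparison of the sides covered the 5615 transcripts with a mean of at least 5 CPM over the 96 X1 cells, the 3 rule genes left out. By the ratio of means, log2 with a pseudocount of 1 CPM, 189 transcripts (3.37%) were at least 4-fold higher in zeta-side cells and 1210 (21.5%) at least 4-fold lower. By the share of cells at 5 CPM or more, the balance was the other way: 404 (7.2%) had a share at least 25 points higher in zeta-side cells and 38 (0.677%) a share at least 25 points lower. With both soxP genes required of sigma-side cells, 6 cells were left and the balance by fold turned, to 1231 higher and 848 lower with a median log2 ratio of 0.025. In the comparison of all 57 cells 40 were called higher and 20 lower by both measures.

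The means were carried by few cells. Over 50% of the zeta-side sum came from 1 cell for 141 of the 189 transcripts called higher, and over 50% of the sigma-side sum came from 1 cell for 648 of the 1210 called lower. The median log2 ratio over all 5615 was -0.63, and it was -0.37 with the size factors of the authors and -0.25 with TMM factors, so the ratios below are to be read against those values. The split of calls by fold was 352 higher and 1160 lower with size factors and 185 higher and 747 lower with TMM. The median share difference was 1.9 points. Without the Group 3 cells, 626 of 4701 transcripts (13.3%) were at least 4-fold lower and 360 (7.66%) had a share at least 25 points higher.

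**Figure D2:**
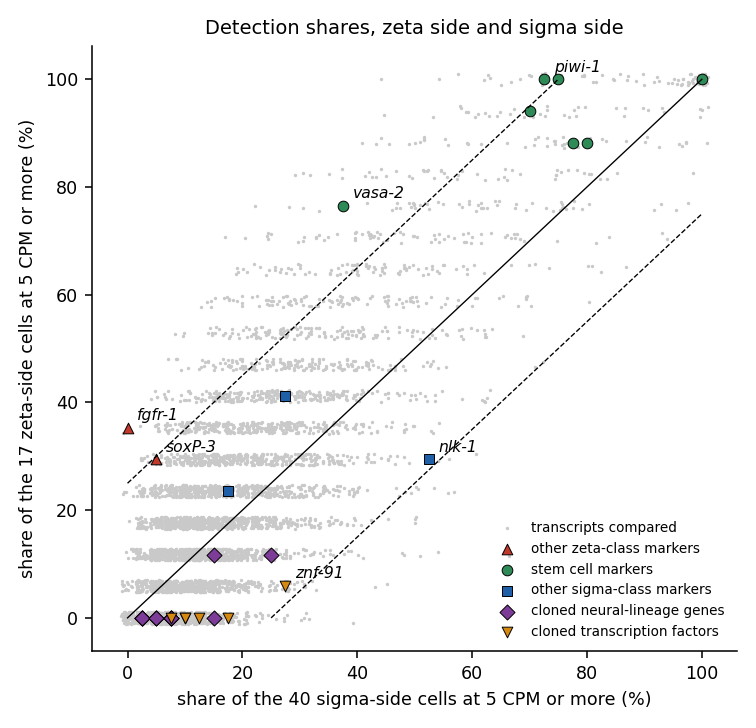
Share of the 17 zeta-side cells (vertical axis, %) against the share of the 40 sigma-side cells (horizontal axis, %) with at least 5 CPM, for 5615 transcripts (grey, jittered) and 5 gene lists. The solid line marks equal shares and the dashed lines a difference of 25 points; piwi-1 (27.5 points) and vasa-2 (39.0 points) lie above the upper dashed line, and 404 transcripts in all lie on or above it and 38 on or below the lower one.

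Of the other zeta-class markers, soxP-3 and fgfr-1 could be paired with a transcript and egr-1 and gata123 could not. Both paired genes were too low to be among the 5615, with means of 1.5 and 4.75 CPM over the 96 cells, and so stand outside the counts above. fgfr-1 (SmedASXL_015337), which encodes a fibroblast growth factor receptor, was at 95.6, 69.8, 62.7, 24.6, 19.6 and 14.4 CPM in 6 zeta-side cells and at 3.72 CPM or less in the other 11. In the 40 sigma-side cells its highest value was 1.2 CPM. The 6 high cells thus had no counterpart among sigma-side cells, while 4 of 39 cells on neither side reached 5 CPM, the highest at 133 CPM.

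As shares, fgfr-1 was in 35.3% of zeta-side cells (exact 95% interval 14.2% to 61.7%) and 0% of sigma-side cells (0% to 8.81%), and the 2 intervals did not overlap. After thinning, 6 of 17 and 2 of 40 cells had a read of it. The share difference of 35.3 points ranged from 17.6 points, with detection at 50 CPM, to 41.7 points, without Group 4 (5 of 12 and 0 of 30 cells), over the alternatives tried.

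soxP-3 (SmedASXL_004704), a SoxP-family gene of the epidermal lineage, reached 33.2, 27.3, 23.5, 10.7 and 8.08 CPM in 5 zeta-side cells. It reached 10.6 and 6.55 CPM in 2 sigma-side cells, and 2 cells on neither side had 5 CPM or more. The shares were 29.4% of zeta-side cells (10.3% to 56.0%) and 5% of sigma-side cells (0.611% to 16.9%), a difference of 24.4 points, and the intervals overlapped. After thinning, 3 of 17 and 2 of 40 cells had a read of it, with detection at 50 CPM the difference was 0 points, and without Group 4 the counts were 2 of 12 and 0 of 30.

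At least 1 of these genes was in 9 of the 17 zeta-side cells. Of these, 3 had soxP-3 only, 4 had fgfr-1 only and 2 had both, and the share with either was 52.9% (27.8% to 77.0%). It was 5% in sigma-side cells (0.611% to 16.9%) and 12.8% in cells on neither side (4.30% to 27.4%). Read from the other end, 6 of the 10 X1 cells with fgfr-1 and 5 of the 9 with soxP-3 were zeta-side cells, although zeta-side cells were 17 of 96.

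The remaining 8 zeta-side cells had neither gene at 5 CPM. Their zfp-1 had a median of 50.0 CPM (6.87 to 106 CPM), against 35.4 CPM (5.37 to 266 CPM) in the 9 cells that had soxP-3 or fgfr-1. They had 6.13 of the 7 stem cell markers on average, against 6.78 in those 9 cells. The ranges of both values overlapped.

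Of the other sigma-class markers 3 were paired with a transcript, and nlk-1 had the largest difference between the sides. nlk-1 (SmedASXL_005509), a Nemo-like kinase gene, ranged from 0 to 124 CPM in zeta-side cells with a median of 0.357 CPM. In sigma-side cells it ranged from 0 to 766 CPM with a median of 9.92 CPM. Of the 3 genes it alone had a sigma-side median above 0, and the ranges overlapped.

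Detection of nlk-1 was 5 of 17 zeta-side cells (29.4%, 10.3% to 56.0%), against 21 of 40 sigma-side cells (52.5%, 36.1% to 68.5%), and 5 of 39 cells on neither side (12.8%, 4.30% to 27.4%). The mean was 15.0 ± 31.9 CPM in zeta-side cells and 104 ± 176 CPM in sigma-side cells (SD, n = 17 and 40), a log2 ratio of -2.72 (-1.77 with size factors and -2.44 with TMM). Without the highest cell of each side it was -3.26, without Group 3 it was -2.69, and without Group 4 it was -2.0. The share difference of -23.1 points missed the 25-point mark. Over the alternatives it ranged from -37.3 points, with both soxP genes required, to -9.52 points in Group 1 alone.

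Within the sigma side nlk-1 was found with either marker. It was in 10 of 19 cells with soxP-1 only, 7 of 15 with soxP-2 only and 4 of 6 with both, and in 1 of the 3 zeta-side cells with soxP-1. The sigma-side share outside Group 3 was 17 of 33 cells.

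The other genes of the list had close values on both sides. inx-13 (SmedASXL_013857), an innexin gene for gap junction channels, was in 4 of 17 zeta-side cells and 7 of 40 sigma-side cells (23.5% and 17.5%), with means of 7.86 ± 15.9 and 10.8 ± 33.5 CPM. fgfr-4 (SmedASXL_016233), another FGF receptor gene, was in 7 of 17 and 11 of 40 (41.2% and 27.5%), with means of 16.7 ± 32.4 and 11.4 ± 27.6 CPM. The intervals of the sides overlapped for each gene, and 3 and 4 of 39 cells on neither side had them. Of the 3 genes, 1 was at least 4-fold lower in zeta-side cells, against 21.5% of all transcripts, and 0 passed 25 points.

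Stem cell genes were present together in a larger share of zeta-side cells. Zeta-side cells had 6.47 ± 0.943 of the 7 markers at 5 CPM, sigma-side cells 5.13 ± 1.9 and cells on neither side 4.15 ± 2.1 (SD over cells). All 7 were present in 12 of 17 zeta-side cells (70.6%, exact 95% interval 44.0% to 89.7%), 12 of 40 sigma-side cells (30.0%, 16.6% to 46.5%) and 7 of 39 cells on neither side (17.9%, 7.54% to 33.5%). No zeta-side cell had fewer than 4, whereas sigma-side cells went down to 1. Outside Group 3, sigma-side cells had 5.73 ± 1.5, and 12 of 33 had all 7 (36.4%, 20.4% to 54.9%).

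Thinning to equal depth kept the order of the means. They were then 6.24 ± 1.4 in zeta-side cells and 5.33 ± 1.8 in sigma-side cells, and 11 of 17 and 13 of 40 cells had all 7. The lowest counts per cell were then 2 and 1, so the sides were close in their minimum. The 33 sigma-side cells outside Group 3 had 5.88 ± 1.4, within 1 SD of the zeta-side mean.

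Of the 7 markers, 3 had a share at least 25 points higher in zeta-side cells and 0 at least 25 points lower, where 7.2% and 0.677% of all transcripts did. These were piwi-1, vasa-2 and HP1-1. The median share difference over the list was 24.1 points, against 1.9 over all transcripts. With thinned reads, without Group 3, in Group 1 alone, or without cells 1 to 24 only 1 of the 7 passed, and with detection at 1 read 0 did. Over all transcripts, 275 of 5641, 360 of 4701 (7.66%), 473 of 4372 (10.8%), 664 of 5502 and 395 of 5615 passed in these settings, in that order. Without Group 4, 4 of the 7 passed, vasa-1 among them at 28.3 points, where 459 of 5683 transcripts did.

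piwi-1 (SmedASXL_008653), a PIWI protein gene that defines neoblasts, ranged from 29.2 to 746 CPM in zeta-side cells, with a median of 325 CPM. In sigma-side cells it ranged from 0 to 2891 CPM, with a median of 315 CPM. The medians were close, and the range of sigma-side cells was wider at both ends. piwi-1 was at 5 CPM or more in all 17 zeta-side cells (100%, 80.5% to 100%), 29 of 40 sigma-side cells (72.5%, 56.1% to 85.4%) and 23 of 39 on neither side (59.0%, 42.1% to 74.4%). Outside Group 3 the sigma-side count was 29 of 33, a difference of 12.1 points, and at equal depth 16 of 17 and 30 of 40 cells had a read.

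vasa-2 (SmedASXL_006546), a gene for a DEAD-box RNA helicase of the Vasa family, had the largest share difference of the list. Its median was 22.6 CPM in zeta-side cells (0 to 127 CPM) and 0.600 CPM in sigma-side cells (0 to 611 CPM). It was in 13 of 17 zeta-side cells (76.5%, 50.1% to 93.2%), 15 of 40 sigma-side cells (37.5%, 22.7% to 54.2%) and 13 of 39 cells on neither side (33.3%, 19.1% to 50.2%). The difference of 39.0 points was 34.0 points with thinned reads and 31.0 points without Group 3. It was 12.4 points with detection at 1 read and 11.2 points at 50 CPM. The means were 43.9 ± 44.4 CPM in zeta-side cells and 61.2 ± 128 CPM in sigma-side cells, a log2 ratio of -0.47 that was 0.16 with size factors and 0.15 with TMM.

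HP1-1 (SmedASXL_004476), a heterochromatin protein gene, was in 17 of 17 zeta-side cells (9.48 to 169 CPM, median 53.0 CPM), against 30 of 40 sigma-side cells (0 to 312 CPM, median 59.3 CPM). Its difference was 25.0 points, at the mark, and 15.2 points without Group 3. vasa-1 (SmedASXL_006346), the other Vasa-family gene, was in 16 of 17 and 28 of 40, with medians of 166 and 153 CPM, and missed the mark at 24.1 points. Neither gene had a mean that differed by as much as the spread between cells.

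The other 3 markers differed less. piwi-2 (SmedASXL_018810) was in all 17 zeta-side cells and all 40 sigma-side cells, with medians of 722 and 712 CPM. piwi-3 (SmedASXL_002725) was in 15 of 17 and 31 of 40, with medians of 221 and 215 CPM. bruli (SmedASXL_009464), an RNA-binding protein gene needed to keep neoblasts, was in 15 of 17 and 32 of 40, and its mean was 133 ± 101 CPM in zeta-side cells and 232 ± 251 CPM in sigma-side cells. Over the 7 markers the log2 ratios lay between -0.80 and 0.08, with a median of -0.25. None reached 4-fold. For piwi-1 the ratio was -0.41, and 0.11 with size factors.

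alpha-tubulin (SmedASXL_017404), a cytoskeleton gene used as a control, was in 17 of 17 zeta-side cells, 36 of 40 sigma-side cells and 33 of 39 cells on neither side, a difference of 10.0 points between the sides. Its medians were 59.7, 66.9 and 67.4 CPM. Reads per cell and transcripts per cell had higher medians in zeta-side cells as well (5862 against 5328 transcripts), and their part in the stem cell shares was not tested beyond the thinning.

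**Figure D3:**
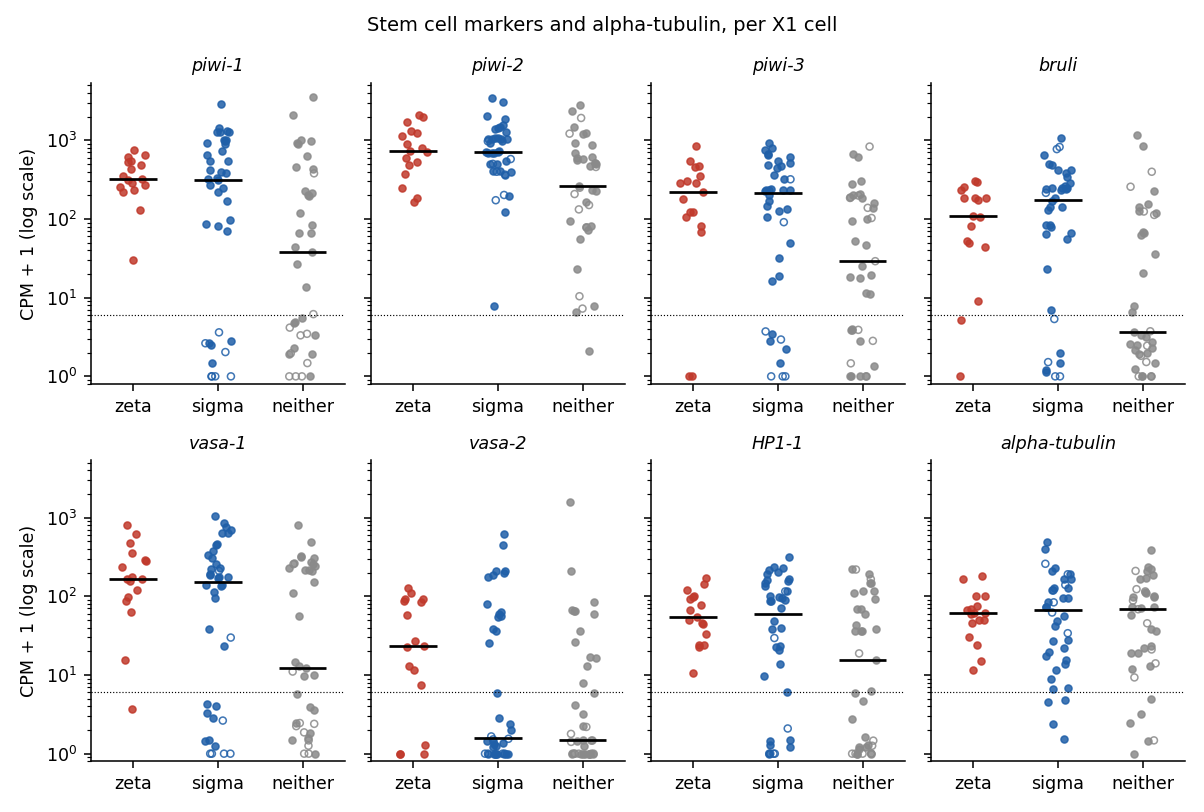
CPM plus 1 on a log axis of the 7 stem cell markers and alpha-tubulin in each X1 cell by side; bars are medians, the dotted line is 5 CPM and open circles are Group 3 cells. The medians of zeta-side and sigma-side cells are close for piwi-1 (325 and 315 CPM), while 11 of 40 sigma-side cells and 0 of 17 zeta-side cells lie below the line.

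Within the sigma side, cells with both soxP genes had 6.17 ± 0.753 of the 7 stem cell markers, those with soxP-1 only 4.79 ± 2.1 and those with soxP-2 only 5.13 ± 2.0. piwi-1 was in 5 of 6, 14 of 19 and 10 of 15 of them. The exact intervals of these shares overlapped (35.9% to 99.6%, 48.8% to 90.9% and 38.4% to 88.2%). The 3 zeta-side cells with soxP-1 had all 7 markers.

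Neural-lineage genes had zeta-side means of at most 2.17 CPM, and from 75.5% to 100% of each gene's sigma-side sum lay in Group 3. Of 11 genes that the study cloned as neural-lineage genes, 11 had a mean at least 4-fold lower in zeta-side cells, where 21.5% of all transcripts did. Genes this low in zeta-side cells averaged 5 CPM only through other cells, so the filter itself favours such a call. The shares of all transcripts are therefore no measure for the counts of this list. The list was chosen by the study on these cells, from genes of its own Group 3, so its direction is not independent evidence. The median log2 ratio was -4.08, or -4.04 with the 5 genes that had no zeta-side read set to the value that 3 reads over the side would give. Outside Group 3 the sigma-side means of 7 of the 11 were at most 0.0565 CPM, so that no fold could be read for them, and the other 4 were msi-1 at 16.1 CPM, elav-2 at 7.77 CPM, ston-2 at 2.6 CPM and ptprd-9 at 1.8 CPM. Of the 11, 5 were 4-fold lower without cells 1 to 24, 6 with the sides set at 1 CPM and 8 without the highest cell of each side. Over all transcripts 1224 of 5502, 954 of 5615 and 1143 of 5615 were, in that order.

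By cells the list was rare on both sides. At least 1 of the 11 genes was in 4 of 17 zeta-side cells (23.5%) and 14 of 40 sigma-side cells (35%), 7 of the 14 in Group 3. Zeta-side cells had at most 1 of the 11 genes, and 0 of 17 had 3 or more (exact 95% interval 0% to 19.5%). The X1 cell just under the zfp-1 threshold, at 4.04 CPM, lay in Group 3 and had 6 of the 11. These zeta-side counts therefore depend on where the threshold lies. Of the sigma-side cells 7 of 40 had 3 or more (17.5%, 7.34% to 32.8%), 5 of them in Group 3, and of the cells on neither side 8 of 39 did (20.5%, 9.30% to 36.5%), all 8 in Group 3. None of the 11 differed by 25 points, and the median share difference was -5 points.

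The means rested on few cells. ston-2 (SmedASXL_013691), named after a vertebrate endocytosis adaptor, was at most 1.8 CPM in zeta-side cells, while 6 of 40 sigma-side cells reached 5 CPM, the highest at 1143 CPM. Group 3 held 96.8% of its sigma-side sum. msi-1 (SmedASXL_008525), a Musashi-family RNA-binding protein gene, was the 1 gene of the 11 (9.09%) still 4-fold lower without Group 3. Of all transcripts 13.3% were, but only those averaging 5 CPM there were counted. That filter was not put on the 11, so the 2 shares are not alike. msi-1 was in 2 of 17 zeta-side cells, with 13.9 CPM as the highest, and in 10 of 40 sigma-side cells, with 941 CPM as the highest. Its log2 ratio was -4.28 in all cells and -2.59 without Group 3. For msi-2, elav3-11 and grm-3 a single sigma-side cell was at 5 CPM or more, at 446, 318 and 264 CPM, and no zeta-side cell reached 1 CPM.

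Of the 6 neural markers compared, 4 were at least 4-fold lower in zeta-side cells and 0 had a share 25 points lower, where 21.5% and 0.677% of all transcripts did. Of the markers, synapsin, chat, nkx2.4 and egr-4 averaged under 5 CPM in zeta-side cells and passed the filter only through other cells. The filter favours a lower call for them, so 21.5% is no measure for this count. chat (SmedASXL_012349), the acetylcholine-synthesis gene, was at 2.4 ± 5.45 CPM in zeta-side cells and 76.4 ± 290 CPM in sigma-side cells, and at 2.4 and 2.3 CPM without Group 3, which held 97.5% of the sigma-side sum. pc2 (SmedASXL_009486), a prohormone convertase gene of neurons, was at 11.3 ± 21.4 and 127 ± 502 CPM, and at 11.3 and 13.3 CPM without Group 3. Outside that group the means of both genes differed by less than the SD over cells.

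synapsin (SmedASXL_014276), a synaptic vesicle gene, was the 1 neural marker of 6 (16.7%) still 4-fold lower without Group 3. The 13.3% of all transcripts covers only those averaging 5 CPM there, a filter not put on the 6, so the shares are not alike. synapsin was at most 0.924 CPM in the 17 zeta-side cells. It reached 5 CPM in 8 of 40 sigma-side cells, 5 of them outside Group 3, with a highest value of 799 CPM. Its log2 ratio was -5.47 in all cells, -5.24 without Group 3 and -0.78 with the sides set at 1 CPM. At 1 CPM the zeta side gained the cell at 4.04 CPM of zfp-1, which had synapsin at 425 CPM. castor (SmedASXL_016911), a zinc finger transcription factor gene of neural progenitors in other animals, was in 7 of 17 zeta-side cells (41.2%, 18.4% to 67.1%), 9 of 40 sigma-side cells (22.5%, 10.8% to 38.5%) and 7 of 39 on neither side (17.9%, 7.54% to 33.5%), and these intervals overlapped.

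**Figure D4:**
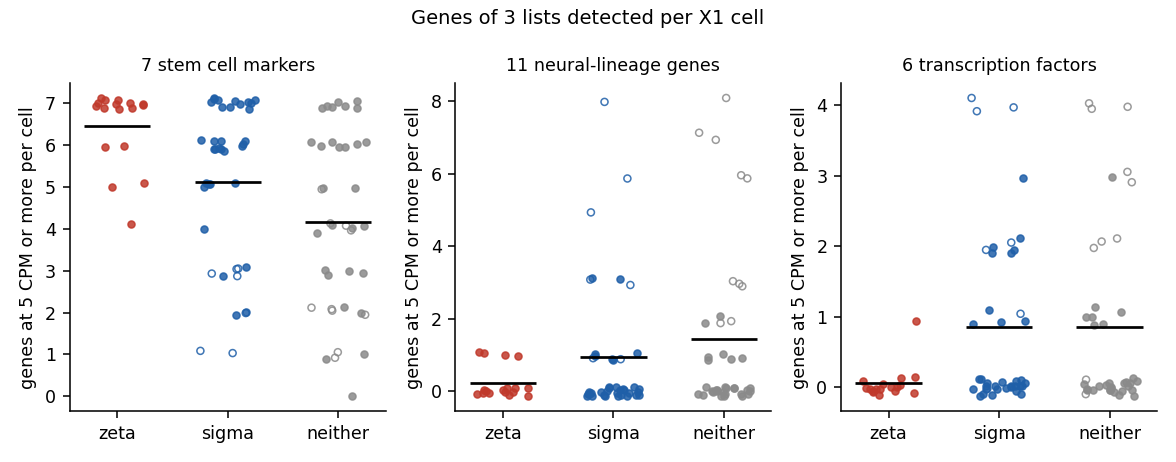
Number of genes at 5 CPM or more per X1 cell (vertical axis, jittered) for the 7 stem cell markers, the 11 neural-lineage genes and the 6 transcription factors, by side. Bars are means (6.47 and 5.13 stem cell markers in zeta-side and sigma-side cells), and open circles are Group 3 cells, which hold most of the cells with 3 or more neural-lineage genes.

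Transcription factor genes of the cloned set reached 5 CPM in 1 of 17 zeta-side cells. The 6 that the study cloned were cux-1, ski-1, ski-3, smad-4, alx-3 and znf-91, and like the neural-lineage genes they were chosen on these cells. Of the 5 among the transcripts compared, 5 were at least 4-fold lower in zeta-side cells, where 21.5% of all transcripts were, with a median log2 ratio of -4.67 (-4.61 with ski-1, which had no zeta-side read, set at the value of 3 reads). Without Group 3, 3 of those that still averaged 5 CPM were, and in Group 1 alone 2 were. Zeta-side means were near the floor there, with ski-3 at 0.195 CPM and smad-4 at 0.042 CPM without Group 3. A gene this low in zeta-side cells averages 5 CPM only through other cells, so the filter itself favours such a call. For smad-4, 1 of 33 sigma-side cells outside Group 3 had 5 CPM or more. The shares of all transcripts, 13.3% and 24.7%, are therefore no measure for these counts.

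Zeta-side cells had 0.0588 ± 0.243 of these 6 genes, sigma-side cells 0.850 ± 1.3 and cells on neither side 0.846 ± 1.3. znf-91 (SmedASXL_011708), a zinc finger gene, was in 1 of 17 zeta-side cells, at 28.4 CPM (5.88%, 0.149% to 28.7%), in 11 of 40 sigma-side cells with 566 CPM as the highest (27.5%, 14.6% to 43.9%), and in 9 of 39 cells on neither side. It was in 4 of the 6 sigma-side cells that had both soxP genes. cux-1 (SmedASXL_016134), a homeobox gene, was at most 0.892 CPM in zeta-side cells and in 7 of 40 sigma-side cells, and Group 3 held 94.0% of its sigma-side sum. ski-3 (SmedASXL_006842), of the Ski corepressor family that acts on TGF-beta signalling in vertebrates, was in 0 of 17 and 5 of 40, and 30.4% of its sigma-side sum was in Group 3.

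Of the markers of other tissues 1 was paired. pou2/3 (SmedASXL_008748), a POU transcription factor gene of the excretory protonephridia, was at most 2.7 CPM in zeta-side cells and 0.687 CPM in cells on neither side, and reached 5 CPM in 3 of 40 sigma-side cells (7.5%, 1.6% to 20.4%), with 800.1 CPM as the highest. The zeta-side count was 0 of 17 (0% to 19.5%), so a difference was not detectable at this number of cells. myoD, foxa and gata456a were not paired with a transcript.

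Of 17 transcripts that the study listed for a lineage of the X2 gate, 0 were 4-fold higher, 0 were 4-fold lower and 1 had a share at least 25 points lower in zeta-side cells, where 3.37%, 21.5% and 0.677% of all transcripts did. Their median log2 ratio was -0.11, where that of all transcripts was -0.63. Since 8 of the 17 were found almost only in Group 4, as given above, the list was also taken without it: 9 members then averaged 5 CPM, and their median was -0.84, where that of all transcripts was -0.87. Y-box genes, which encode cold-shock domain proteins that bind RNA, were among them. Ybp2-1 (SmedASXL_006362) was in 17 of 17 zeta-side cells (10.9 to 421 CPM, median 124 CPM), against 33 of 40 sigma-side cells (0 to 693 CPM, median 74.9 CPM), and yps-1 (SmedASXL_004469) in 17 of 17 and 32 of 40, with medians of 52.8 and 97.2 CPM. Both were present in every zeta-side cell, at levels that overlapped those of the sigma side. Ybp2-2 (SmedASXL_009660) was at 5 CPM or more in 10 of 17 zeta-side cells and 28 of 40 sigma-side cells (58.8% and 70.0%). Its medians, 6.25 and 7.91 CPM, lay near that limit. After thinning, 10 of 17 and 16 of 40 cells had a read of it (58.8% and 40%), so the direction depended on the measure.

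The transcripts with the largest share differences have no gene name in the files. SmedASXL_010862 was in all 17 zeta-side cells (6.95 to 218 CPM, median 55.3 CPM), against 18 of 40 sigma-side cells (0 to 505 CPM, median 3.33 CPM), and 15 of 17 and 16 of 40 had a read after thinning. SmedASXL_005331 was in 13 of 17 zeta-side cells and 9 of 40 sigma-side cells, with medians of 14.2 and 0 CPM. Both were chosen as the extremes of 5615 transcripts.

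In the other direction SmedASXL_077410 was in 2 of 17 zeta-side cells and 27 of 40 sigma-side cells, a difference of -55.7 points, with medians of 2.3 and 10.4 CPM. Cells on neither side had it in 24 of 39. SmedASXL_064826 was in 2 of 17 zeta-side cells, 22 of 40 sigma-side cells and 11 of 39 on neither side. With thinned reads the differences of these 2 transcripts were -25.6 and -29.9 points, and that of SmedASXL_077410 was -4.12 points with detection at 50 CPM.

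Against the 39 cells on neither side, zeta-side cells had 373 transcripts (6.64%) at least 4-fold higher and 1228 (21.9%) lower, and sigma-side cells had 625 (11.1%) higher and 431 (7.68%) lower. By share, zeta-side cells had 645 (11.5%) at least 25 points higher and 27 (0.481%) lower, and sigma-side cells had 55 (0.98%) higher and 7 (0.125%) lower. For nlk-1 the log2 ratio over cells on neither side was 0.18 in zeta-side cells and 2.9 in sigma-side cells, and for fgfr-1 it was 1.8 and -2.25. The 3 comparisons share cells, the numbers of cells differ, and the differences between them were not tested.

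In the X2 gate the same rule gave few cells. The 3 X2 cells with zfp-1 all had piwi-1, with a mean of 2742 CPM, and 0 of 3 had soxP-3, fgfr-1 or nlk-1. Of the 20 X2 cells with soxP-1 or soxP-2 and no zfp-1, 13 had piwi-1 and 5 had nlk-1, against 30 and 6 of the other 49. With 3 cells no comparison with the zeta side of X1 was made.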

How the data were processed

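Reads of 50 bp were aligned by the authors with Bowtie2 2.2.4 to the SmedASXL transcriptome after trimming of 15 bp. The authors deposited raw counts per transcript of 96 X1 cells, 72 X2 cells and 3 tubes, with 67983 transcripts. Reads assigned to no transcript were 21.2% of an X1 cell's counts on average (7.51% to 65.0%) and were left out of CPM. Normalized signal values, deposited by the authors as counts divided by size factors and Winsorized, served only for the size factors and for 10 rebuilt groups. The groups came from ward.D2 on the 1000 most variable transcripts and differ in membership from those of the authors.

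CPM, means, log2 ratios (pseudocount 1 CPM) and shares at 5 CPM were computed with pandas 2.3.3 and numpy 2.4.6 under Python 3.11.15. TMM factors came from edgeR 4.0.16 in R 4.3.3. Intervals used scipy 1.17.1 and figures matplotlib 3.10.9. A transcript counted as different at 4-fold or 25 points. Intervals are exact 95% binomial (Clopper-Pearson). Cells were thinned to 100000 reads (seed 1). The computation was tested on simulated data.

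Named genes were all those that the study's supplementary tables or code pair with a transcript, marker genes whose listed values over 49 cells picked out 1 transcript (r of at least 0.99, next lower by at least 0.1; 22 of 28 names were paired), and the 2 transcripts with the largest share difference each way. Members and lists were chosen with earlier results of these data known. Cells came from pooled animals, so p-values were not computed. Alternatives were other thresholds, normalizations, filters, pseudocounts, detection limits and subsets of cells.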

Additional observations from a re-analysis of the deposited data

How the results depend on the processing

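No paired analysis was possible because the sides hold cells of 1 sample and no test was made. At 1 CPM the sides had 18 and 48 cells, and 6 neural-lineage genes and 1 neural marker were 4-fold lower, with log2 ratios of 0.53 for ston-2, 1.6 for grm-3 and 0.90 for syt-11. The zeta-side cell added there was the Group 3 cell at 4.04 CPM of zfp-1, with ston-2 at 1468 CPM, grm-3 at 329 CPM and syt-11 at 462 CPM. In that setting 954 of 5615 transcripts were 4-fold lower. With both soxP genes required, 6 sigma-side cells were left, and of 5615 transcripts 1231 were 4-fold higher and 848 lower, 605 had a share 25 points higher and 413 lower. There 1 stem cell marker passed, 2 neural-lineage genes, 2 transcription factors and 1 neural marker were lower, and the ratios were 2.11 for egr-4, 0.076 for grm-3 and 0.028 for sec14-l2. Size factors gave 352 transcripts higher, and TMM 747 lower and 25 with a lower share. Filters at 1 CPM and at 1 read gave 639 and 789 higher and 2366 lower each. A pseudocount of 10 gave 19 higher and 93 lower, 3 neural-lineage genes and 3 transcription factors. Detection at 1 read gave 395 higher and 94 lower shares and 0 stem cell markers. At 50 CPM 46 higher and 23 lower shares and 1 marker were left. An unnamed transcript of the X2-lineage list had a share difference of 3.09 points with size factors and 2.5 points at 1 read. Thinning left 1 stem cell marker, where 275 of 5641 transcripts had a share 25 points higher. Without cells 1 to 24 there were 11 zeta-side cells, 664 higher shares, 1 stem cell marker, 5 neural-lineage genes and 2 neural markers (sec14-l2 at 0.044). Of the 5502 transcripts compared there, 1224 were 4-fold lower. In Group 1 alone 9 and 21 cells gave 119 lower shares, 1 stem cell marker, 2 neural-lineage genes, 2 transcription factors and 1 neural marker (grm-3 at 0.093, sec14-l2 at 0.037, ski-3 at 0.037). Of the 4372 transcripts compared there, 1079 were 4-fold lower and 473 had a higher share. Without Group 3, 626 of 4701 were lower and 360 had a higher share, with 1 stem cell marker, 1 neural-lineage gene, 3 transcription factors and 1 neural marker (chat at 0.023, grm-3 at 0.045, sec14-l2 at 0.028). Without Group 4, 86 had a lower share. The causes were not tested beyond the cells or transcripts that a setting adds or leaves out. Of the values of single genes under alternatives, 1564 stayed within the spread or interval, 219 moved further and 15 changed sign. A share of 17 cells has a wide interval, from 27.8% to 77.0% at 9 of 17, and a single read is not a molecule count.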
